A study of Mus musculus with 2 samples.

Results

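*Id1*, *Id2*, *Id3* and *Id4* were the 4 genes described, found by symbol among the 27998 genes counted in wound dermal cells of mice. They encode the inhibitors of DNA binding, a family of helix-loop-helix proteins that lack the basic region needed to touch DNA. An Id protein pairs with an E protein (Tcf3, Tcf4 or Tcf12) and keeps it from binding E-box DNA with a tissue-specific bHLH partner, which holds back differentiation and the transcription of cell cycle inhibitors. BMP signaling through SMAD1, SMAD5 and SMAD4 is the best known inducer of *Id1* to *Id3*, and BMP ligands are also known from the dermal papilla, a cluster of fibroblasts at the base of the hair follicle.

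Single-cell RNA sequencing had been performed on 1 library per genotype. Control mice carried SM22rtTA, tetO-Cre and R26-Tomato, and *SM22-SmoM2* mice carried SM22rtTA, tetO-Cre and R26-SmoM2/Tomato, so that Cre switched on Tomato in both genotypes and a constitutively active Smoothened, the signal transducer of the Hedgehog (Hh) pathway, in the latter alone. All mice were 4 to 5 weeks old and received doxycycline at 20 g/kg from day 1 after wounding. According to the labels it was given until 3 days after complete reepithelialization, when Tomato+ dermal cells were sorted. rtTA was driven by the *SM22α* (*Tagln*) promoter, which is not specific to fibroblasts, and the wounds of several mice were pooled in each library. With 1 library per genotype there was no replicate and no test between conditions. Every interval below is a 95% interval for counting error in these libraries and does not cover the spread between mice. Intervals of levels and ratios take all UMIs of a class as 1 count, so they also leave out the spread between cells. This matters most where a class has few cells.

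After filtering, 2856 control cells with a median of 8607.5 unique molecular identifiers (UMIs) and 1792 *SM22-SmoM2* cells with a median of 8837.5 UMIs remained. Clusters were named by their markers as fibroblast-like (1086 control and 1097 *SM22-SmoM2* cells), endothelial-like (692 and 262), Schwann-like (683 and 295), muscle-like (smooth muscle and pericytes, 280 and 102) and immune-like (82 and 33), and are called by these lineages from here on. The Tomato+ gate thus held all of these lineages, and the fibroblast share was 38% in control and 61.2% in *SM22-SmoM2*. Among fibroblasts with UMIs of 1 sex only, 74.6% were male in control and 94.4% in *SM22-SmoM2*. These shares were 66.7% and 62.6% in endothelial cells, 57.6% and 55.6% in Schwann cells and 62.8% and 68.5% in muscle cells. In the few immune cells they were 43.1% and 91.3%. Barcodes with both *Xist* and Y-linked UMIs made up 5.01% of control and 2.51% of *SM22-SmoM2* cells. The summed level of the 8 fibroblast markers in fibroblasts was 74191 CPM (UMIs of a gene per 1000000 UMIs of the same cells) in control and 46357 CPM in *SM22-SmoM2*, while the summed endothelial markers there were 88.1 and 81.4 CPM.

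On GRCm38, *Id1* (ENSMUSG00000042745) lies on the forward strand of chromosome 2 from 152736251 to 152737410, and *Id2* (ENSMUSG00000020644) on the reverse strand of chromosome 12 from 25093799 to 25097140. *Id3* (ENSMUSG00000007872) lies on the forward strand of chromosome 4 from 136143497 to 136145755, and *Id4* (ENSMUSG00000021379) on the forward strand of chromosome 13 from 48261228 to 48266026. The 4 genes are thus on 4 chromosomes and share no neighbourhood. *A330033J07Rik* and *Gm49291* overlap *Id4* on the opposite strand, and since the strand counted is not given in the sources used here, UMIs of *Id4* could include theirs.

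Promoter sequences of RefSeq on GRCm38.p6 were searched for letters of known elements on both strands, because *Id2* went apart from the other members in the fibroblasts described below. The sequences used held no entry for *Id1*. The window ran from 250 bases before to 50 bases after the start that RefSeq gives and was read for *Id2*, *Id3* and *Id4*. That start lay inside the GENCODE bounds given above for *Id2* and *Id3* and before them for *Id4*, so the distances hold for the RefSeq start alone. The letters were GGCGCC (a GC-rich SMAD element, found in 11.9% of 32851 windows), GTCTAGAC (a palindromic SMAD element, 0.213%), GACCACCCA (the GLI element, 0.253%), TGACGTCA (the cyclic AMP response element, 1.79%), GCGTGGGCG (the EGR element, 0.612%), CANNTG (the E-box, 72.3%), TATAAA (13.6%) and CCAAT (37.4%). None of these overlapped another in the 3 windows. GGCGCC was found in *Id2*, 231 bases before the RefSeq start, and in *Id4*, 148 bases before it. The *Id2* window also held an E-box and 3 CCAAT matches, the *Id4* window 2 CCAAT matches and the *Id3* window none of the 8. GGCGCC is found in 11.9% of all windows, and any link between these letters and the levels in fibroblasts was not tested. A match is a description of the letters and not a site. The 2 stretches around GGCGCC are shown with these letters in capitals, at chr12:25096310-25096331 on the reverse strand and chr13:48260960-48260981 on the forward strand.
Id2: gccccctgGGCGCCcagcgcac
Id4: ggttgcccGGCGCCccgccctc
The E-box stretch of *Id2*, at chr12:25096275-25096296 on the reverse strand, 196 bases before the start, is the only match in the 3 windows to the letters that Id proteins keep E proteins from.
Id2: tgccacccCAGCTGggctctcg
The 250 bases before the *Id4* start, at chr13:48260866-48261115 on the forward strand, are shown whole for their GC content, the highest of the 3. Capitals mark GGCGCC and CCAAT read on the opposite strand, and 75.6% of the bases are G or C, against 62.8% in the same stretch of *Id2* and of *Id3*.
Id4: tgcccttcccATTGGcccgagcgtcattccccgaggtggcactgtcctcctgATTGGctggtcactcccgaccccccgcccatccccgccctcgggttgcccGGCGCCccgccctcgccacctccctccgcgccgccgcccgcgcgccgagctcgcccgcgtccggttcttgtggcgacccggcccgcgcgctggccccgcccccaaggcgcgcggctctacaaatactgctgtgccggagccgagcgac

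In control dermis *Id1* and *Id3* were highest in endothelial cells, *Id2* in immune cells and *Id4* in muscle cells. *Id1* stood at 829 CPM (810 to 850) in endothelial cells, 245 CPM (224 to 268) in muscle cells, 107 CPM (102 to 113) in fibroblasts, 107 CPM (98.1 to 117) in Schwann cells and 87.1 CPM (66.6 to 112) in immune cells. The last 3 of these overlapped in their intervals, and endothelial and muscle cells stood above them. *Id2* stood at 1169 CPM (1091 to 1252) in immune cells, 282 CPM (270 to 294) in endothelial cells, 274 CPM (266 to 283) in fibroblasts, 199 CPM (186 to 212) in Schwann cells and 92.1 CPM (79.3 to 106) in muscle cells. Immune cells, in which *Id2* is required for innate lymphoid and some dendritic cells, led by a wide margin, and endothelial cells and fibroblasts overlapped. Among control immune cells *Id2* was at 1395 CPM in cluster 16, led by *Lyz2* and *C1qb*, and at 917 CPM in cluster 19, led by *Cd74* and *H2-Aa*.

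*Id3* stood at 1575 CPM (1548 to 1603) in endothelial cells, 1200 CPM (1169 to 1231) in Schwann cells, 1112 CPM (1066 to 1160) in muscle cells, 399 CPM (388 to 409) in fibroblasts and 367 CPM (323 to 415) in immune cells. Only the last pair overlapped. *Id4* stood at 284 CPM (261 to 309) in muscle cells, 41.8 CPM (36.2 to 48.0) in Schwann cells, 28.0 CPM (24.5 to 31.9) in endothelial cells, 14.3 CPM (6.85 to 26.3) in immune cells and 9.24 CPM (7.72 to 11) in fibroblasts. Muscle cells thus held by far the highest *Id4* level, endothelial and immune cells overlapped, as did immune cells and fibroblasts, and fibroblasts were at or near the bottom for every member but *Id2*.

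**Figure D1:**
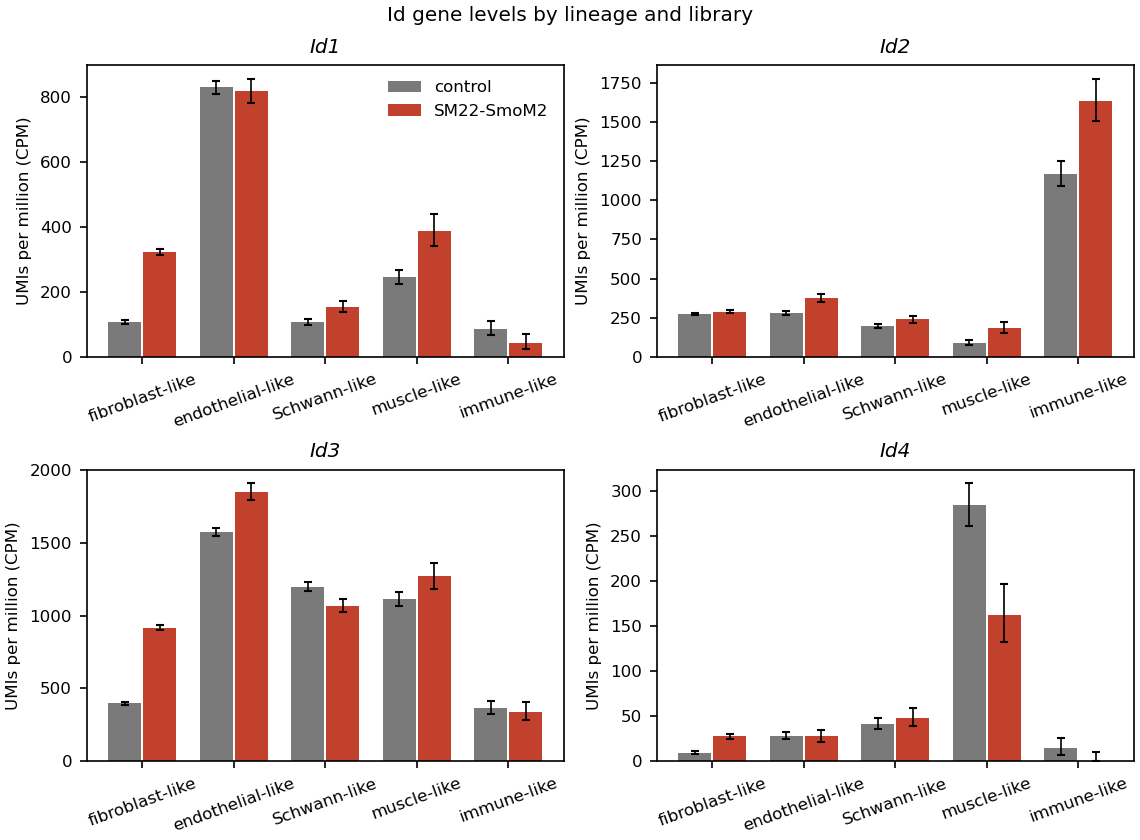
Levels of *Id1* to *Id4* in CPM (y axis, linear, from 0) by lineage (x axis) in the control (grey) and *SM22-SmoM2* (red) library. Bars are UMIs summed over the cells of a lineage, and error bars are 95% Poisson intervals. *Id1*, *Id3* and *Id4* are higher in *SM22-SmoM2* fibroblasts, whereas *Id1* is at 829 and 816 CPM in endothelial cells of the 2 libraries.

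In *SM22-SmoM2* fibroblasts *Id1*, *Id3* and *Id4* were higher than in control fibroblasts, and *Id2* was at nearly the same level. *Id1* stood at 107 CPM in control fibroblasts and 323 CPM (313 to 333) in those of *SM22-SmoM2*, a log2 ratio of 1.59 (1.5 to 1.68) or 3.01-fold. *Id3* stood at 399 CPM and 917 CPM (900 to 934), a log2 ratio of 1.20 (1.16 to 1.25) or 2.30-fold. *Id4* stood at 9.24 CPM and 27.7 CPM (24.8 to 30.7), a log2 ratio of 1.58 (1.29 to 1.88) or 2.99-fold, from 130 and 345 UMIs. *Id2* stood at 274 CPM and 290 CPM (280 to 299), a log2 ratio of 0.08 (0.01 to 0.14). The intervals of the former 3 members did not overlap between the libraries.

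A gene was counted as past the fold when it differed at least 1.5-fold with at least 50 UMIs over both libraries, without a test. Of the 11515 genes with enough UMIs in fibroblasts, 11.9% were past the fold upward and 12.2% downward, beside 3 of 4 Id genes upward and 0 of 4 downward. Ranked from the highest ratio, *Id1* came 238th, *Id4* 240th, *Id3* 416th and *Id2* 4320th of these genes. In these bulk-like sums, more cells with an Id transcript and more transcripts per cell cannot be told apart. Shares of cells were also taken, after each cell had been thinned to 2500 UMIs. Such a share rises with the transcripts per cell too, so it does not fully separate the former from the latter.

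At that depth 17.4% of control (15.2 to 19.8) and 34.0% of *SM22-SmoM2* fibroblasts (31.2 to 36.9) had a UMI of *Id1*. For *Id3* the shares were 50.6% (47.5 to 53.6) and 61.3% (58.4 to 64.2), and for *Id4* they were 2.21% (1.42 to 3.27) and 6.02% (4.68 to 7.59). For *Id2* they were 36.2% (33.3 to 39.1) and 38% (35.1 to 41). Before thinning, when cells had medians of 12473 and 10954 UMIs, these were 44.8% and 60.4% for *Id1*, 79.8% and 84.9% for *Id3*, 9.94% and 19.1% for *Id4*, and 65.7% and 66.5% for *Id2*. As a rough reference for free RNA, immune cells had *Id1* UMIs in 11% of control cells (5.14 to 19.8) and 3.03% of *SM22-SmoM2* cells (0.0767 to 15.8) at the same thinned depth, with unthinned medians of 7468 and 9324 UMIs. Their *Id1* level was 170 CPM in cluster 19 and 18.9 CPM in cluster 16, so free RNA and their own transcripts cannot be told apart. The interval of *Id1* in control fibroblasts overlapped that of control immune cells. The *Id4* share of control fibroblasts lay inside the interval of the 4.88% (1.34 to 12) of control immune cells and cannot be told from background. The *Id4* ratios above and below thus rest on a level that may be background wherever 1 side is near that of control fibroblasts. In *SM22-SmoM2* fibroblasts the interval of the *Id4* share overlapped that of immune cells, of which 0 of 33 had an *Id4* UMI (0 to 10.6%).

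The upper end of the *Id3* distribution differed more between the libraries than the share of cells with any UMI. At 2500 UMIs per cell the median was 1 *Id3* UMI in both libraries. Cells with 5 or more *Id3* UMIs made up 3.22% of control and 17.9% of *SM22-SmoM2* fibroblasts, and the highest counts were 13 and 41 UMIs. *Id1* and *Id3* UMIs were found together in 11.2% of control (9.42 to 13.3) and 25.9% of *SM22-SmoM2* fibroblasts (23.3 to 28.6). Independent detection of both genes would give 8.80% and 20.9%, so most of this rise goes with the shares of each gene alone. A share of 30.1% and 21.8% had no UMI of any of the 4 genes.

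The other lineages did not show the fibroblast pattern. In endothelial cells *Id1* was at 829 CPM in control, against 816 CPM (780 to 854) in *SM22-SmoM2*, and *Id4* at 28.0 and 27.6 CPM (21.2 to 35.3), with overlapping intervals. *Id2* was at 282 and 377 CPM (353 to 404) and *Id3* at 1575 and 1853 CPM (1797 to 1909) there, log2 ratios of 0.42 and 0.23. None of the 4 was past the fold, beside 3.06% of 9869 genes upward and 6.45% downward. Schwann cells likewise had 0 of 4 past the fold (4.53% of 8651 genes upward, 7.84% downward), although *Id1* passed it in 9 of 13 alternatives, with log2 ratios from 0.43 to 0.82. *Id1* was at 107 and 154 CPM (137 to 172) there, *Id2* at 199 and 239 CPM (218 to 262), *Id4* at 41.8 and 48.4 CPM (39.3 to 59.0), and *Id3* at 1200 and 1069 CPM (1025 to 1115). The last was the only interval of a Schwann ratio that lay below 0, at a log2 ratio of −0.17 (−0.24 to −0.09). Summed melanocyte markers were at 128 and 21.8 CPM in these cells and summed endothelial markers at 122 and 37.6 CPM, and their part in the Schwann values was not tested.

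In muscle cells 2 of 4 members were past the fold upward (4.47% of 6124 genes) and 1 downward (10.9%). *Id2* was at 92.1 CPM in control, against 184 CPM (152 to 220) in *SM22-SmoM2*, a log2 ratio of 0.99 (0.64 to 1.34), and *Id1* at 245 and 388 CPM (341 to 440), a log2 ratio of 0.66 (0.43 to 0.89). The latter fell under the fold in 6 of 12 alternatives, down to 0.44 with Leiden clustering. *Id3* was at 1112 and 1270 CPM (1183 to 1362). *Id4*, whose highest level was in this lineage, was at 284 and 163 CPM (133 to 198), a log2 ratio of −0.81 (−1.12 to −0.50). The median gene of muscle cells had a log2 ratio of −0.10, and relative to it the ratios were 0.77 for *Id1*, 1.10 for *Id2*, 0.30 for *Id3* and −0.70 for *Id4*. Melanocyte markers were at 0 in the muscle cells of both libraries, and summed fibroblast markers were at 7231 and 7024 CPM there.

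Immune cells were few, and 1 of the 3 members with enough UMIs was past the fold, downward (15.4% of 2661 genes, with 10% upward). *Id1* was at 87.1 CPM in control, against 43.8 CPM (25.0 to 71.1) in *SM22-SmoM2* from 61 and 16 UMIs, a log2 ratio of −0.99 (−1.89 to −0.18). *Id2* was at 1169 and 1636 CPM (1507 to 1772), a log2 ratio of 0.48 (0.33 to 0.64), and *Id3* at 367 and 339 CPM (282 to 404). *Id4* had 10 UMIs in control and 0 in *SM22-SmoM2*. With the 0 replaced by a floor of 3 UMIs it was 1.74-fold lower, which is not a lower bound. The interval of its log2 ratio had no lower bound and an upper bound of −0.23. Its CPM intervals, 6.85 to 26.3 in control and 0 to 10.1 in *SM22-SmoM2*, overlapped. The libraries also differed in the makeup of these cells, whose part in the *Id1* difference was not tested. Cluster 19 (39 control and 4 *SM22-SmoM2* cells) had *Id1* at 170 CPM over both libraries, and cluster 16 (43 and 29 cells) at 18.9 CPM. Within cluster 16 *Id1* was at 21.6 and 15.7 CPM from 8 and 5 UMIs, a log2 ratio of −0.46 (−2.42 to 1.33). Within cluster 19 it was at 160 and 236 CPM, a log2 ratio of 0.56 (−0.53 to 1.51). Both intervals included 0, and that of cluster 16 also included −0.99. *Id2* had log2 ratios of 0.26 (0.09 to 0.44) in cluster 16 and 0.58 (0.17 to 0.97) in cluster 19.

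**Figure D2:**
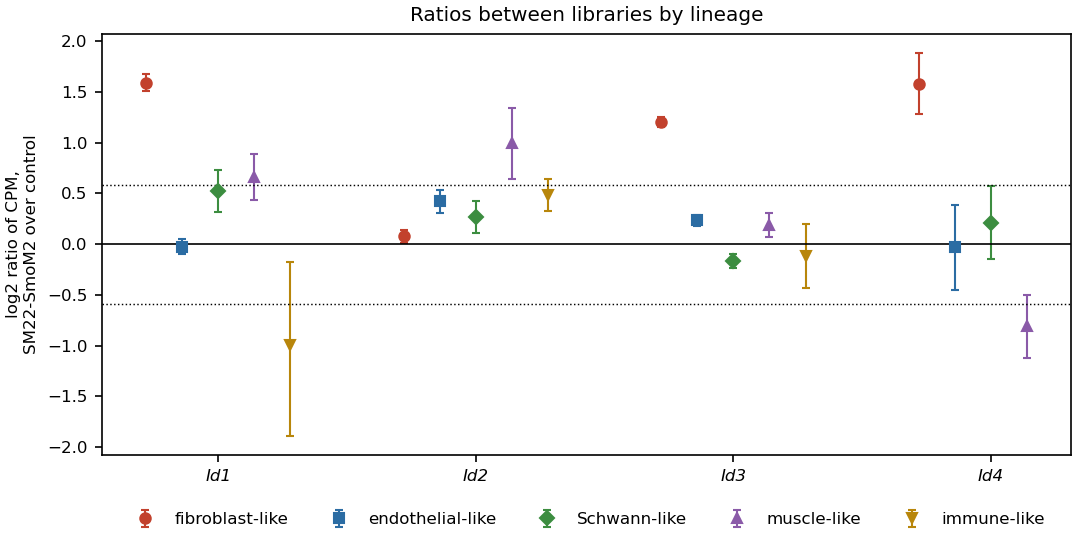
Log2 ratios of CPM, *SM22-SmoM2* over control (y axis), for each Id gene (x axis) in 5 lineages (symbols), with 95% intervals for counting error. Dotted lines mark 1.5-fold, and *Id4* in immune cells, with 0 UMIs in *SM22-SmoM2*, is not drawn. The fibroblast ratios of *Id1* (1.59), *Id3* (1.20) and *Id4* (1.58) lie above those of the other lineages, and the muscle ratio of *Id4* (−0.81) lies below 0.

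Fibroblasts were next split by their Hh state, from a set of target genes and receptors of the Hh pathway such as *Gli1* and *Ptch1*. Sub-clusters with these genes raised were called Hh-active-like (48 control and 753 *SM22-SmoM2* cells), and 1 sub-cluster that also carried a wider set of dermal papilla genes was called Hh-active II-like (45 *SM22-SmoM2* cells and no control cell). Clusters are groups of the same cells whose genes are read here, so these differences are a description. The Id genes took no part in the clustering.

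Among *SM22-SmoM2* fibroblasts, *Id1* was at 361 CPM (348 to 374) in Hh-active-like and 190 CPM (176 to 204) in other cells, and *Id3* at 1111 CPM (1089 to 1134) and 392 CPM (373 to 413). *Id4* was at 32.9 CPM (29.2 to 37.0) and 8.31 CPM (5.65 to 11.8). *Id2* went the other way, at 254 CPM (244 to 265) and 319 CPM (301 to 338). For *Id4* the lower of these levels is near that of control fibroblasts. The log2 ratios were 0.93, 1.5, 1.99 and −0.33, so 3 of 4 members were past the fold upward, beside 16.1% of 9922 genes, and 0 downward, beside 13.7%.

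The fibroblasts that were not Hh-active-like were also compared between the libraries. *Id3* was at 395 CPM in these control cells and 392 CPM in these *SM22-SmoM2* cells, a log2 ratio of −0.01 (−0.09 to 0.07), and *Id4* at 8.98 and 8.31 CPM, a log2 ratio of −0.11 (−0.73 to 0.47). *Id1* was at 101 and 190 CPM, a log2 ratio of 0.92 (0.78 to 1.05), and *Id2* at 273 and 319 CPM, a log2 ratio of 0.22 (0.13 to 0.32). Sub-cluster 3, where control *Id3* was 510 CPM, held 269 of these control and 3 of these *SM22-SmoM2* cells. Sub-clusters 10 and 12, where it was 571 and 570 CPM, held 84 and 60 control cells against 0 and 3. Within sub-cluster 1 (268 and 114 cells) the *Id3* log2 ratio was 1.05 (0.90 to 1.20). Within sub-clusters 2 and 9 it was −0.04 and 0.02. The part of this makeup in the *Id3* ratio of −0.01 was not tested. The cycling sub-cluster 9 was counted among the fibroblasts that were not Hh-active-like. Yet its 57 *SM22-SmoM2* cells had *Ptch1* at 172, *Gli1* at 23.8 and *Egfl6* at 197 CPM. Its 56 control cells had 1.89, 1.89 and 2.83 CPM. Without it *Id1* was at 103 and 133 CPM, a log2 ratio of 0.38 (0.21 to 0.54), which was under the fold. The log2 ratios of the others were then 0.15 for *Id2*, 0.01 for *Id3* and −0.03 for *Id4*, and that of Hh-active-like over these *SM22-SmoM2* cells was 1.44 for *Id1*. In the 48 Hh-active-like control cells *Id1* was at 301 CPM (254 to 354), *Id2* at 301 CPM (254 to 354), *Id3* at 503 CPM (441 to 570) and *Id4* at 16.6 CPM (7.18 to 32.8). *Id1* and *Id3* were thus also higher in these few control cells than in the other control fibroblasts, with log2 ratios of 1.58 (1.33 to 1.83) and 0.35 (0.16 to 0.53).

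The Hh-active II-like cells, whose leading genes included *Rspo3*, *Bmp4*, *Bmp7* and *Alpl*, had high levels of all 4 members. *Id1* was at 907 CPM (803 to 1020), *Id2* at 910 CPM (806 to 1023), *Id3* at 1958 CPM (1804 to 2121) and *Id4* at 118 CPM (82.8 to 164). All 4 were past the fold over the Hh-active-like cells, beside 36.3% of 9150 genes upward and 17.4% downward, with log2 ratios of 1.33, 1.84, 0.82 and 1.84. The median gene of this comparison stood at 0.27, and relative to it the ratios were 1.06, 1.57, 0.55 and 1.57, which put *Id3* under the fold. Their *Id2* level was the highest of any fibroblast sub-cluster with at least 30 cells of a library, and these cells were shallow, with a median of 4425 UMIs. Their *Bmp4* level was 286 CPM and their *Bmp7* level 263 CPM, whereas in the Hh-active-like sub-clusters of *SM22-SmoM2* these genes were between 0.422 and 2.49 CPM and between 0.456 and 11.6 CPM. *Rspo3*, *Bmp4* and *Alpl* were among the markers that named these cells, so their high levels there follow from the naming. *Bmp7* was not among these markers.

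Within the Hh-active-like *SM22-SmoM2* cells the levels were far from even. Sub-cluster 8 (125 cells, none in control), led by *Egfl6* and *Hmox1*, had 3633 CPM of *Id3* (3526 to 3742), 845 CPM of *Id1* (794 to 899) and 100 CPM of *Id4* (83.3 to 120), but 173 CPM of *Id2* (150 to 198). It held 11.4% of *SM22-SmoM2* fibroblasts and 9.67% of their UMIs, and 38.3% of their *Id3*, 35.1% of their *Id4* and 25.3% of their *Id1* UMIs, against 5.76% of their *Id2* UMIs. Sub-cluster 7 (127 cells), led by *Egfl6* and cell cycle genes, had 749 CPM of *Id1* (703 to 798), 1180 CPM of *Id3* (1122 to 1240) and 477 CPM of *Id2* (440 to 515), with 19.9 CPM of *Id4* (13 to 29.2). *Id1* was thus high in both, while of the Hh-active-like sub-clusters the former had the highest *Id3* and *Id4* levels and the latter the highest *Id2* level.

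The remaining Hh-active-like sub-clusters had lower *Id1* levels. Sub-cluster 4 (201 cells, led by *Penk*) had 169 CPM of *Id1*, 281 CPM of *Id2*, 339 CPM of *Id3* and 10.9 CPM of *Id4*. Sub-cluster 6 (117 cells) had 196, 284, 449 and 25.6 CPM of *Id1*, *Id2*, *Id3* and *Id4*. Sub-cluster 5 (183 cells, led by *Areg* and *Hmox1*) had 175 CPM of *Id1* and 131 CPM of *Id2*, but 887 CPM of *Id3* (850 to 926) and 30.4 CPM of *Id4* (23.8 to 38.3). Across the Hh-active-like sub-clusters of *SM22-SmoM2*, *Id1* levels thus ran from 169 to 845 CPM and *Id3* levels from 339 to 3633 CPM. The Hh-active II-like cells, whose Hh markers were raised too, had 907 and 1958 CPM.

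Among the sub-clusters to which both libraries gave 50 cells or more, *Id1* did not differ in 1 direction. In sub-cluster 1, led by *Crabp1*, *Id1* was at 113 CPM in control, against 216 CPM in *SM22-SmoM2*, *Id2* at 203 and 386 CPM and *Id3* at 241 and 499 CPM, log2 ratios of 0.94, 0.93 and 1.05. In sub-cluster 2, led by *Mmp13* and *Mmp3*, *Id1* was lower, at 84.0 and 55.0 CPM (log2 ratio −0.61, −1 to −0.24), and *Id3* was at 323 and 315 CPM. In the cycling sub-cluster 9, *Id1* was at 77.3 and 397 CPM, a log2 ratio of 2.36 (2.01 to 2.73), while *Id3* was at 356 and 362 CPM. Averaged over these 3 sub-clusters with equal weight, the log2 ratios were 0.90 for *Id1*, 0.41 for *Id2*, 0.34 for *Id3* and 0.72 for *Id4*, so that the *Id3* ratio no longer reached 1.5-fold. The Hh-active-like sub-cluster 6, with 31 control and 117 *SM22-SmoM2* cells, was under the limit of 50. There *Id1* was at 262 and 196 CPM, a log2 ratio of −0.42 (−0.79 to −0.04). *Id3* was at 344 and 449 CPM, a log2 ratio of 0.39 (0.08 to 0.71).

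**Figure D3:**
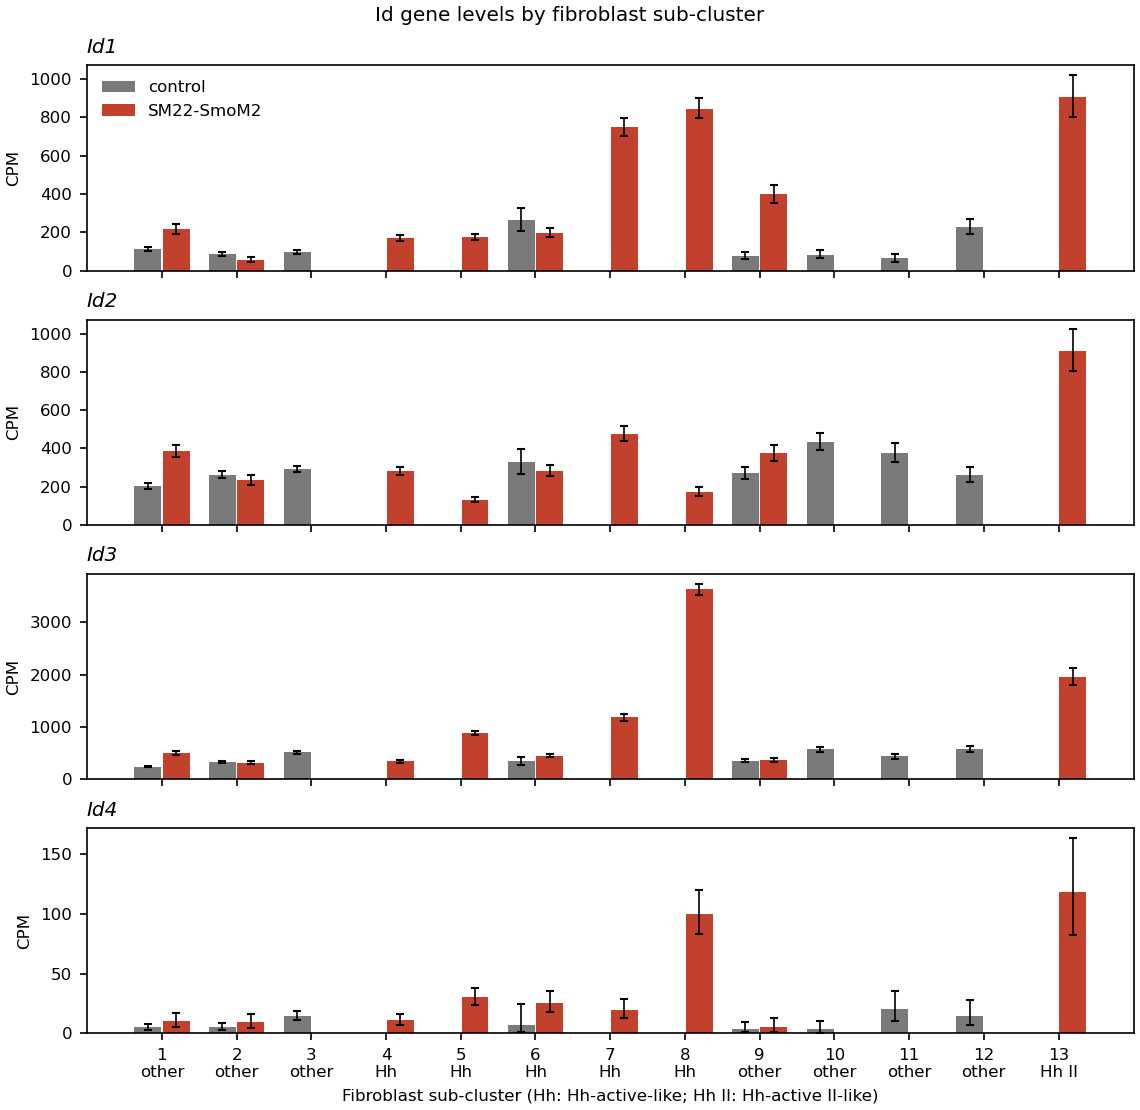
Levels of *Id1* to *Id4* in CPM (y axes, linear, from 0) in 13 fibroblast sub-clusters (x axis) of the control (grey) and *SM22-SmoM2* (red) library, with 95% Poisson intervals and only for sub-clusters with at least 30 cells of that library. *Id3* reaches 3633 CPM in sub-cluster 8 and 1958 CPM in sub-cluster 13, and *Id2* reaches 910 CPM in sub-cluster 13.

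*Egfl6* encodes a secreted protein of the extracellular matrix with EGF-like repeats. Of the *SM22-SmoM2* fibroblasts, 309 had *Egfl6* UMIs and 788 had none (28.2%), of control fibroblasts 38 and 1048 (3.50%). The cells with *Egfl6* were not deeper, with medians of 9809 and 11447.5 UMIs in *SM22-SmoM2*. *Id1* was at 645 CPM (618 to 672) with and 205 CPM (196 to 214) without *Egfl6* UMIs, a log2 ratio of 1.65 (1.56 to 1.74). *Id3* was at 1829 CPM (1784 to 1875) and 581 CPM (566 to 597), a log2 ratio of 1.65 (1.60 to 1.71), and *Id4* at 40.2 CPM (33.7 to 47.6) and 23.0 CPM (20.0 to 26.4), a log2 ratio of 0.80 (0.48 to 1.12). *Id2* was at 318 CPM (299 to 338) and 279 CPM (268 to 290), a log2 ratio of 0.19 (0.08 to 0.29). Thus 3 of 4 members were past the fold upward, beside 8.04% of 10041 genes, and 0 downward, beside 11.9%.

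The levels followed the number of *Egfl6* UMIs in a cell. With 0, 1 to 2, 3 to 9 and 10 or more *Egfl6* UMIs, *Id1* was at 205, 322, 699 and 1022 CPM, in 788, 103, 129 and 77 cells. *Id3* was at 581, 942, 2160 and 2628 CPM in the same order. *Id4* was at 23.0 and 22.2 CPM in the lower groups and 52.2 and 49.6 CPM in the upper groups, and *Id2* at 279, 257, 305 and 419 CPM. *Id1* and *Id3* were thus higher at each step with intervals that did not overlap, and *Id2* left the range of the other groups only with 10 or more *Egfl6* UMIs. *Id1* and *Id3* UMIs were found together, at 2500 UMIs per cell, in 43.7% of cells with *Egfl6* (38.1 to 49.4) and 18.9% of cells without it (16.2 to 21.8). The shares for independent detection of both genes were 37.2% and 15.6%.

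**Figure D4:**
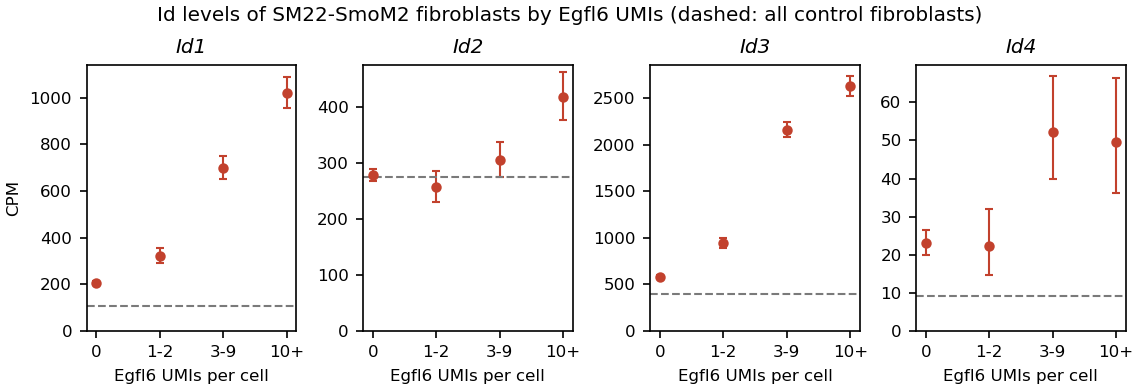
Levels of *Id1* to *Id4* in CPM (y axes, linear, from 0) in *SM22-SmoM2* fibroblasts with 0, 1 to 2, 3 to 9 and 10 or more *Egfl6* UMIs (x axis), with 95% Poisson intervals. The dashed line is the level of all control fibroblasts. *Id3* climbs from 581 to 2628 CPM and *Id1* from 205 to 1022 CPM.

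Since *Egfl6* marked sub-clusters 7 and 8, the split was repeated inside sub-clusters. In sub-cluster 7, 94 cells with and 33 without *Egfl6* UMIs had *Id1* at 912 and 395 CPM, a log2 ratio of 1.21 (0.96 to 1.46), *Id3* at 1350 and 809 CPM, a log2 ratio of 0.74 (0.56 to 0.92), and *Id2* at 546 and 324 CPM, a log2 ratio of 0.75 (0.47 to 1.04). In sub-cluster 8, 102 and 23 cells had *Id3* at 3979 and 2106 CPM, a log2 ratio of 0.92 (0.78 to 1.06), but *Id1* at 856 and 799 CPM, with overlapping intervals, and *Id4* at 89.5 and 148 CPM, a log2 ratio of −0.73 (−1.32 to −0.10). Sub-cluster 9 also had higher levels with *Egfl6*, at 756 and 211 CPM of *Id1* and 580 and 249 CPM of *Id3* in 20 and 37 cells. In sub-cluster 4, with 26 and 175 cells, *Id1* was at 375 and 138 CPM, a log2 ratio of 1.45 (1.11 to 1.77), and *Id3* at 451 and 322 CPM. In sub-cluster 13, with 14 and 31 cells, the log2 ratios were 0.38 (0.03 to 0.73) for *Id1*, 0.47 (0.24 to 0.71) for *Id3* and −0.65 (−1.03 to −0.27) for *Id2*. In sub-cluster 2, with 13 and 102 cells, *Id1* was at 91.7 and 49.4 CPM, a log2 ratio of 0.89 (0.02 to 1.69). Sub-cluster 6 went the other way, with *Id1* at 33.5 and 216 CPM and *Id3* at 255 and 473 CPM in 13 and 104 cells, as did *Id1* in sub-cluster 5, at 93.6 and 189 CPM in 20 and 163 cells. The same split in the 38 and 1048 control fibroblasts gave *Id1* at 94.1 and 108 CPM, a log2 ratio of −0.20 (−0.63 to 0.20), *Id3* at 456 and 396 CPM, *Id2* at 355 and 271 CPM and *Id4* at 9.05 and 9.25 CPM. Of the members, 0 were past the fold there, beside 12.2% of 10251 genes upward and 13.1% downward.

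Without any cell holding *Egfl6* UMIs, *Id1* was still higher in *SM22-SmoM2* fibroblasts, at 108 CPM in control, against 205 CPM in *SM22-SmoM2*, a log2 ratio of 0.92 (0.82 to 1.02). *Id4* was at 9.25 and 23.0 CPM, a log2 ratio of 1.32 (0.99 to 1.65). *Id3* was at 396 and 581 CPM, a log2 ratio of 0.55 (0.50 to 0.61), which was under 1.5-fold, and *Id2* at 271 and 279 CPM. With sub-clusters 7 and 8 left out the log2 ratios were 0.93 for *Id1*, 0.47 for *Id3* and 1.11 for *Id4*.

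The sex of the cells was the only mark used here that separates animals of a pool, and *Id3* differed by it. In male fibroblasts (643 control and 815 *SM22-SmoM2* cells) *Id1* was at 103 and 325 CPM, *Id3* at 436 and 974 CPM, *Id4* at 10.4 and 28.4 CPM and *Id2* at 282 and 276 CPM. In female fibroblasts (219 and 48 cells) *Id1* was at 133 CPM (120 to 148) and 278 CPM (232 to 331), a log2 ratio of 1.06 (0.76 to 1.36). *Id3* was at 333 CPM (311 to 356) and 276 CPM (231 to 329) in female cells, a log2 ratio of −0.27, with a lower bound of −0.55 and an upper bound just under 0. *Id4* was at 7.85 CPM and 10.8 CPM (3.50 to 25.2) there, from 20 and 5 UMIs, and *Id2* at 330 and 376 CPM. The higher *Id3* of *SM22-SmoM2* fibroblasts was thus found in male cells and not in the 48 female cells, whereas *Id1* was higher in both sexes. The difference between the sexes was not tested, and sex and mouse cannot be told apart.

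The sexes also differed in the sub-clusters that held their *SM22-SmoM2* fibroblasts. Sub-cluster 8 held 106 of 815 male cells (13%) and 1 of 48 female cells (2.08%), and sub-cluster 4 held 136 (16.7%) and 23 (47.9%). *Egfl6* UMIs were found in 243 male (29.8%) and 9 female cells (18.8%). With sub-clusters 7, 8 and 13 left out, *Id3* in *SM22-SmoM2* was at 544 CPM (528 to 561) in 587 male and 216 CPM (173 to 266) in 40 female cells, and *Id1* at 181 CPM (171 to 190) and 300 CPM (249 to 359). In sub-cluster 4 alone, *Id3* was at 358 CPM (329 to 389) in male and 226 CPM (169 to 297) in female cells, and *Id1* at 158 CPM (139 to 179) and 300 CPM (233 to 380). In these sets *Id1* was thus the higher in female cells and *Id3* the higher in male cells. In other lineages *Id2* also differed by sex. In Schwann cells its log2 ratio was 0.61 in male and −0.58 in female cells, and in endothelial cells 0.17 and 0.74.

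**Figure D5:**
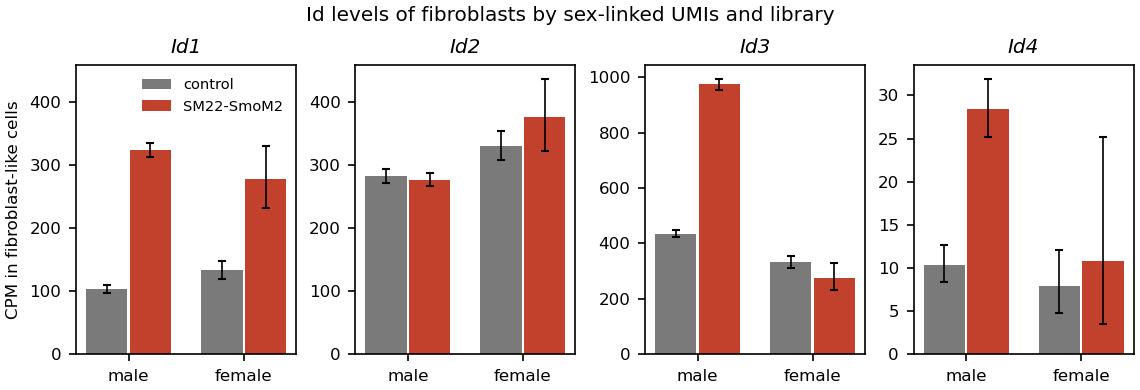
Levels of *Id1* to *Id4* in CPM (y axes, linear, from 0) in male and female fibroblasts (x axis) of the control (grey) and *SM22-SmoM2* (red) library, with 95% Poisson intervals. *Id3* is at 436 and 974 CPM in male cells and at 333 and 276 CPM in the 219 and 48 female cells, while *Id1* is higher in *SM22-SmoM2* in both.

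The levels of 16 early response genes were summed in the same cells. These genes, such as *Junb* and *Nr4a1*, respond fast to growth factors and to tissue dissociation, as *Id1* and *Id3* themselves can. Their summed level in fibroblasts was 4864 CPM in control, against 7499 CPM in *SM22-SmoM2*, 7084 CPM without and 8627 CPM with *Egfl6* UMIs. By *SM22-SmoM2* sub-cluster it was highest in sub-clusters 13 (15493 CPM), 8 (11267 CPM) and 5 (10282 CPM), the 3 with the highest *Id4* levels, and it was 7315 CPM in sub-cluster 7. It was lowest, among sub-clusters with 30 cells or more, in sub-cluster 9 (3414 CPM), where *Id1* was at 397 CPM, while *Id1* was at 175 CPM in sub-cluster 5. Of the 16 genes, 9 were past the fold upward in *SM22-SmoM2* fibroblasts and 0 downward, beside 11.9% and 12.2% of all genes, with a median log2 ratio of 0.61 beside −0.06 over all genes tested. Their part in the Id levels was not tested.

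Of the 3 E proteins, the partners of the Id proteins, 0 were past the fold upward (11.9% of all genes) and 1 downward (12.2%) in *SM22-SmoM2* fibroblasts, with a median log2 ratio of −0.26. *Tcf4* was at 273 and 172 CPM, a log2 ratio of −0.67 (−0.75 to −0.59), *Tcf3* at 76.9 and 86.3 CPM and *Tcf12* at 59.3 and 49.6 CPM. Between *SM22-SmoM2* fibroblasts with and without *Egfl6* UMIs 0 of the 3 were past the fold, beside 8.04% of all genes upward and 11.9% downward. Their median log2 ratio was 0.49 with over without *Egfl6* UMIs, beside −0.04 over all genes. *Tcf3* at 0.56 and *Tcf4* at 0.49 were higher but under the fold, and *Tcf12* was at 0.01.

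Other bHLH factors, of which only some pair with E proteins, were mostly higher. Of 19 factors 10 had enough UMIs, and 8 of these were past the fold upward and 0 downward, with a median log2 ratio of 1.11. The shares over all genes were 11.9% and 12.2%, and the median was −0.06. *Hey1* was at 11.8 and 58.2 CPM (log2 ratio 2.30) and *Heyl* at 13.5 and 62.0 CPM (2.20), both repressors downstream of Notch. *Mycn* was at 2.42 and 8.18 CPM (1.76) and *Myc* at 73.7 and 176 CPM (1.26), both drivers of cell growth. *Tcf15*, *Bhlhe40*, *Hes1* and *Bhlhe41* were the other 4. Named after their values were seen, *Twist1* and *Twist2*, mesenchymal bHLH factors that pair with E proteins, were at 103 and 113 CPM and at 133 and 145 CPM. With *Egfl6* UMIs *Twist2* was at 259 CPM and without at 103 CPM, a log2 ratio of 1.34.

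The BMP pathway showed no common direction in fibroblasts. Over all genes, 11.9% were past the fold upward and 12.2% downward. Of 9 ligands 5 had enough UMIs, and *Bmp3*, a ligand that acts against other BMPs, was past the fold upward at 8.46 and 41.2 CPM (log2 ratio 2.28, 1.99 to 2.58). *Bmp2* was lower at 5.97 and 2 CPM (−1.58, −2.28 to −0.92), as was *Gdf10* at 16.1 and 7.30 CPM (−1.15, −1.51 to −0.79). Summed over all fibroblasts, the best known ligands of the dermal papilla were within the fold, *Bmp4* at 5.97 and 8.18 CPM and *Bmp7* at 8.53 and 9.94 CPM. These sums were unevenly spread. In *SM22-SmoM2* the 45 Hh-active II-like cells had 286 and 263 CPM, and no Hh-active-like sub-cluster was above 2.49 and 11.6 CPM. In control the highest levels were 36.3 CPM of *Bmp4* in sub-cluster 10 and 129 CPM of *Bmp7* in sub-cluster 12. Of 10 receptors and co-receptors 9 had enough UMIs, with *Rgmb* upward at 26.9 and 61.5 CPM and *Acvrl1* downward at 26.8 and 17.7 CPM, counts near the shares over all genes. Of the 4 SMADs of this branch 3 had enough UMIs and 0 were past the fold, with *Smad1* at 37.2 and 27.8 CPM.

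Among 10 secreted or membrane-bound BMP antagonists, 9 had enough UMIs, 2 were past the fold downward and 1 upward, with a median log2 ratio of −0.51, against 12.2% downward and 11.9% upward over all genes. *Nbl1* was at 591 and 267 CPM (log2 ratio −1.14, −1.20 to −1.09) and *Grem1* at 11.5 and 2.49 CPM (−2.21, −2.82 to −1.65), whereas *Chrdl1* was at 10.0 and 16.7 CPM (0.73). Of 7 other target genes of BMP signaling 4 had enough UMIs. The inhibitory SMADs *Smad7*, at 54.9 and 94.0 CPM (log2 ratio 0.78, 0.64 to 0.91), and *Smad6*, at 2.42 and 4.65 CPM (0.94), were upward. *Msx1* was downward at 10.1 and 1.92 CPM (−2.39, −3.08 to −1.76), and *Bambi* was at 29.3 and 22.0 CPM. The target genes thus had no common direction, with *Id1*, *Id3*, *Smad6* and *Smad7* upward and *Msx1* downward.

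Of 5 cell cycle inhibitors that E proteins can activate, all with enough UMIs, 2 were past the fold upward and 0 downward, where all genes had 11.9% and 12.2%. *Cdkn1a* (p21) was at 108 and 378 CPM, a log2 ratio of 1.81 (1.72 to 1.89), and *Cdkn2a* (p16 and p19) at 30.4 and 107 CPM, a log2 ratio of 1.82 (1.66 to 1.98). *Cdkn1b*, *Cdkn1c* and *Cdkn2b* were within the fold. With *Egfl6* UMIs *Cdkn1a* was at 542 CPM and without at 318 CPM, and *Cdkn2a* was at 82.5 and 116 CPM.

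The genes most like each member were found by Pearson's correlation of log2(CPM + 10) over 19 clusters of all cells with at least 30 cells each, both libraries pooled, among 6132 genes. These clusters share libraries, and their depths differ. They were *Pvrl2* (r = 0.94), *Sema6a* (0.89) and *Eva1a* (0.86) for *Id1*, and *Fam105a* (0.81), *Osbpl8* (0.80) and *Cfp* (0.80) for *Id2*. For *Id3* they were *Rbm18* (0.92), *Eif3e* (0.92) and *Arid4b* (0.91), and for *Id4* *Rap2a* (0.89), *Rdh5* (0.86) and *S1pr3* (0.84). Between members r was 0.76 for *Id1* and *Id3*, 0.67 for *Id3* and *Id4* and 0.39 for *Id1* and *Id4*, while *Id2* had −0.13 with *Id1*, −0.28 with *Id3* and −0.30 with *Id4*. Over the 13 fibroblast sub-clusters, a set chosen after the values had been seen, r was 0.81 for *Id1* and *Id3* and 0.88 for *Id3* and *Id4*, and between 0.11 and 0.27 for *Id2* with the others.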

How the data were processed

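Single-cell libraries were made with the 10x Chromium Single Cell 3′ v2 kit from sorted Tomato+ dermal cells, 1 library per genotype. The deposited matrices hold whole-number UMI counts, 1 per gene in each cell, made by the authors with bcl2fastq and Cell Ranger against mm10 (GRCm38) without normalization. The Cell Ranger version and the annotation are not given in the sources used here. The labels give 20 mM EDTA for 1 h, and the study's methods give a shorter time. Doxycycline was given until 3 days after reepithelialization according to the labels, and the study's methods also place collection at that time. The barcode list holds the whole kit and the matrix columns carry no barcode, so barcodes shared by the libraries could not be counted. Of 27998 gene IDs, 27645 were found in the GENCODE M21 annotation on GRCm38, 26501 with the same symbol.

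Cells needed at least 200 genes and at most 10% mitochondrial UMIs. This removed 22 and 10 cells and left 30103855 and 17814222 UMIs. After scaling each cell to 10000 UMIs and taking logs, 2000 variable genes gave 20 principal components for k-means (K = 20 for all cells, K = 15 for fibroblasts, 50 starts). The Id genes, *Egfl6*, the genes of the fixed lists and the Hh-active and Hh-active II markers were kept out of these 2000. Lineage markers and other genes that led a cluster, such as *Hmox1* and *Penk*, were not kept out. A cluster took a lineage's name when 3 of its markers reached 10 CPM and exceeded the median cluster by 1.5 times. Cluster 17 (65 *SM22-SmoM2* cells) had 2 such markers of its best lineage and was kept as fibroblast because all 14 Hh-active II markers were raised. A sub-cluster with 6 markers of another lineage raised was left out (19 cells), Hh-active-like needed 3 of 5 and Hh-active II-like 7 of 14 markers, and cycling a mean log2 of 2. Not every marker used is reported here. All these limits were chosen with the clusters in view. Doublets were not removed. Scrublet (scanpy 1.11.5, expected rate 5%) marked 5 control and 11 *SM22-SmoM2* cells, too few to rely on. UMIs of Y-linked genes in the absence of *Xist* marked a cell as male, and *Xist* in the absence of those genes as female.

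Sums of UMIs over each class of a library are given as CPM with exact Poisson intervals. Ratios carry exact conditional intervals, and shares exact Clopper-Pearson intervals (95%) after thinning to 2500 UMIs. A count of 0 was replaced by a floor of 3 UMIs in a ratio. No test was run, since each genotype had 1 library. The calculations were tested on simulated data. The genes named beside the Id genes are those of fixed lists past 1.5-fold, the 4 highest and 4 lowest where more than 8 were, and the 3 genes most alike in pattern. List genes within the fold that are named were chosen after their values were seen. Alternatives to the clustering, filters, depth, sex and sub-clusters were tried. The members and lists were chosen with earlier results of these data known. Analyses used Python 3.11.15, numpy 2.4.6, scipy 1.17.1 and scikit-learn 1.9.0.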

Additional observations from a re-analysis of the deposited data

Results flagged for a closer look

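The difference between the libraries had opposite directions in different cells for 3 of the 4 genes, with intervals for counting error on opposite sides of 0. *Id1* had a log2 ratio (*SM22-SmoM2* over control) of 1.59 in fibroblasts, 0.52 in Schwann cells and 0.66 in muscle cells, but −0.99 in immune cells, from 16 and 61 UMIs. The immune cells differed in makeup between the libraries, with *Id1* at 170 CPM in cluster 19 (39 control and 4 *SM22-SmoM2* cells) and 18.9 CPM in cluster 16 (43 and 29 cells). Its log2 ratio was −0.46 within the latter and 0.56 within the former, both with intervals that include 0. The part of this makeup in the immune ratio was not tested. *Id3* had a log2 ratio of 1.20 in fibroblasts, 0.23 in endothelial cells and 0.19 in muscle cells, but −0.17 in Schwann cells. *Id4* had a log2 ratio of 1.58 in fibroblasts and −0.81 in muscle cells. *Id3* also split by sex in fibroblasts, at 1.16 in male and −0.27 in female cells. None of these differences was tested, since each genotype had 1 library.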

How the results depend on the processing

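Each of 33 values was recomputed under its alternatives, 463 in all. Of these, 365 stayed within the counting interval (1.5 times for counts of genes), 95 moved farther and 3 turned the direction of a ratio that was past 1.5-fold. All 3 came from settings that changed which cells were compared. They were the fibroblast ratio of *Id3* in female cells alone, and the *Egfl6* ratios of *Id1* and *Id4* when taken in control fibroblasts. The latter are cells of the other library and not another processing of the same cells. No paired analysis was possible because each genotype had 1 library, and for the same reason no replicate could be left out. Counting error alone is covered, and for *Id4* in female or immune cells 20 UMIs or fewer carry the value. The cause of the moves was not tested.

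Log2 ratios between the libraries in fibroblasts are given first. For *Id1* they were 1.71 with Leiden clustering, 1.502 with K = 12 and 10, 1.42 with K = 30 and 20, 1.72 with cells thinned, 1.71 as a mean of per-cell CPM, 1.70 without sub-clusters whose top genes held markers of other lineages, and 1.27 without cycling sub-clusters. They were 1.06 in female cells, 0.92 in cells without *Egfl6* UMIs, 0.93 without sub-clusters 7 and 8, and 0.90 as a mean over sub-clusters 1, 2 and 9. *Id1* stayed past 1.5-fold in all 20, with 1.47 without the cluster named from Hh-active II markers, the setting that gave 1.11 for *Id3* and 0.0028 for *Id2*. For *Id3* they were 1.25 with at most 5% mitochondrial UMIs, 1.15 with K = 30 and 20, 1.37 with cells thinned, 1.41 as a mean of per-cell CPM, 1.26 centred on the median gene, and 1.29 without the sub-clusters with markers of other lineages. *Id3* fell under 1.5-fold at 0.55 without *Egfl6* UMIs, 0.47 without sub-clusters 7 and 8, 0.34 as the mean over 3 sub-clusters, and −0.27 in female cells, where its direction changed. For *Id4* they were 1.11 without sub-clusters 7 and 8, 0.72 as that mean and 0.46 in female cells. For *Id2* they were 0.20 thinned, 0.21 per cell, −0.028 in male and 0.19 in female cells, −0.083 without cycling sub-clusters, −0.0021 without the Hh-active II-like cells and 0.41 as that mean.

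In endothelial cells *Id1* was at 0.12 thinned, 0.095 per cell and 0.060 centred, against −0.02 otherwise, *Id3* at 0.29 thinned, 0.30 per cell, 0.32 centred, 0.15 in male and 0.40 in female cells, *Id2* at 0.17 in male and 0.74 in female cells, and *Id4* at 0.40 with Leiden clustering. In Schwann cells *Id1* was at 0.82 with Leiden clustering and past 1.5-fold in 9 of 13 alternatives (under it in 6 of 12 in muscle cells), *Id2* at 0.61 in male and −0.58 in female cells, *Id3* at −0.090 centred and *Id4* at 0.75 thinned. Thinned, *Id3* was at −0.039 in muscle and 0.23 in immune cells, both on the other side of 0 from the unthinned ratios.

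With over without *Egfl6* UMIs, *Id1* was at 1.76 with at most 5% mitochondrial UMIs, 1.496 with K = 30 and 20, 1.55 in male cells, 1.93 with at least 2 *Egfl6* UMIs and 1.21 within sub-cluster 7. *Id3* was at 1.75 per cell, 1.89 with *Egfl6* counted after thinning, 1.91 with at least 2 *Egfl6* UMIs and 0.74 within sub-cluster 7, *Id2* at 0.34 with *Egfl6* counted after thinning, 0.33 with at least 2 *Egfl6* UMIs and 0.75 within sub-cluster 7, and *Id4* at 1.39 thinned. In control fibroblasts the split gave −0.20 for *Id1* and −0.032 for *Id4*, both in the other direction with intervals that included 0. It gave 0.39 for *Id2* and 0.20 for *Id3*.

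The genes past 1.5-fold in fibroblasts numbered 2229 upward and 2125 downward with 10 UMIs required, 791 and 899 with 200, 2718 and 2432 with no filter, and 577 and 565 at 2-fold, with 855 upward in female cells. Shares of control and *SM22-SmoM2* fibroblasts with a UMI at 1500 UMIs per cell were 12.5% and 26.4% for *Id1*, 27.6% and 28.0% for *Id2*, and 37.4% and 48.8% for *Id3*. Without thinning they were 44.8% and 60.4%, 65.7% and 66.5%, and 79.8% and 84.9%, with 9.94% and 19.1% for *Id4*. In female control cells they were 39.7% for *Id2*, 43.4% for *Id3* and 0.913% for *Id4*, and in female *SM22-SmoM2* cells 27.1% for *Id1*, 41.7% for *Id3* and 4.17% for *Id4*.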

Other observations

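The E proteins had leading lineages of their own. In control cells *Tcf4* was at 890 CPM (870 to 911) in endothelial cells, 273 CPM (265 to 282) in fibroblasts, 224 CPM (203 to 245) in muscle cells, 107 CPM (84.2 to 134) in immune cells and 76.3 CPM (68.6 to 84.5) in Schwann cells. Endothelial cells thus had the highest *Id1*, *Id3* and *Tcf4* levels, but the other lineages did not keep this order. Schwann cells had the lowest *Tcf4* level with *Id3* at 1200 CPM, and fibroblasts came next to endothelial cells in *Tcf4* with *Id3* at 399 CPM. *Tcf3* was between 22.8 CPM in immune and 94.6 CPM in endothelial cells, and *Tcf12* between 27.1 CPM and 90.5 CPM in the same lineages. Between the libraries *Tcf4* had a log2 ratio of −0.67 in fibroblasts, −0.13 (−0.20 to −0.05) in endothelial cells, and 0.00 in muscle cells with an interval from −0.29 to 0.28.

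Keratinocyte-like cells, 16 in control and 1 in *SM22-SmoM2*, entered no comparison. In the former *Id1* was at 445 CPM (373 to 527), *Id2* at 260 CPM (206 to 325), *Id3* at 699 CPM (608 to 799) and *Id4* at 49.4 CPM (27.7 to 81.6), from 135, 79, 212 and 15 UMIs.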
